A study of Homo sapiens with 15 samples.

Results

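The array probes for RNAs that RefSeq lists as noncoding are described here in PE/CA-PJ41 cells, an established human oral squamous carcinoma line, in cells labelled CYGB+ and cells labelled NCE. RefSeq accessions that begin with NR_ name transcripts without a coding frame: small RNAs, host genes of small nucleolar RNAs (snoRNAs) and of microRNAs, antisense RNAs, transcribed pseudogenes, long intergenic RNAs and noncoding variants of protein-coding genes. Of 42405 non-control probes on the array, 1920 carried such an accession, and 652 of them (566 accessions) were kept because the scanner software called them well above background on every NCE array or on every CYGB+ array. Of the 652, 549 passed in both groups, 51 passed through NCE alone and 52 through CYGB+ alone. A probe that passed through one group alone was kept for its signal there and fell short on at least 1 array of the other. Counts over these probes therefore describe them and carry no further weight. At the edge of the rule, 25 probes missed by 1 NCE array (mean log2 signal 5.35 to 6.91) and 53 missed by 1 CYGB+ array (4.45 to 6.31), while the dimmest probe inside the rule had a mean of 5.31 in NCE and of 5.12 in CYGB+.

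Both groups came from the same line, and neither received a drug. NCE is labelled as carrying an empty vector, although the study's text in places calls its control the untransfected parent. CYGB+ cells carried the human CYGB cDNA, which encodes the globin cytoglobin, behind the CMV promoter of pCMV6-Neo, and were selected in G418 as ring-picked stable clones; the study's array work names 1 clone, so clone and transgene cannot be told apart. RNA was taken on 3 occasions from cells kept 24 h in medium. Each group had 3 biological replicates, on 9 NCE arrays (3 per replicate) and 6 CYGB+ arrays (2 per replicate). For the main test array repeats were averaged first, so n = 3 per group there.

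Values are log2 processed green (Cy3) signals after quantile normalisation, and a difference is CYGB+ minus NCE with its standard error (SE), so that 1 unit is a 2-fold change. The test was limma across 19605 probes, with Benjamini-Hochberg adjustment, and a probe was called when its adjusted p was under 0.05. The labels give Cy3 for all 15 arrays, whereas the study's methods put the control in Cy5. The red signal was not analysed, although the scanner software used both channels to normalise the green one. The only CYGB probe gave 12.84, 13.14 and 12.96 in NCE and 12.39, 13.47 and 13.01 in CYGB+, a difference of -0.02 (SE 0.27, adjusted p = 0.967). The groups overlapped. The study describes the parent line as one without cytoglobin expression, yet this probe was well above background on all 9 NCE arrays, and why was not tested. It is also not known here whether the probe lies within the transfected cDNA, so the labels could not be checked with it. NCE and CYGB+ below mean the arrays so labelled, for every direction given. All 8 squamous markers, KRT5, KRT14 and TP63 among them, were well above background on every array of both groups. Of the other cells' markers given here, COL1A2 and CD14 were above background on every array (COL1A2 fell by 2.48 in CYGB+, adjusted p = 0.00139; CD14 had -0.49, adjusted p = 0.287), COL3A1, PDGFRB, LUM, CD3E and VWF on none, and COL1A1, DCN, PTPRC, PECAM1 and CDH5 on some.

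Slide and group nearly coincided. The first slide held 8 NCE arrays, and the second held 1 array of NCE replicate 1 with all 6 CYGB+ arrays, so the called probes and partner genes described are mostly given also with a difference from a fit with a slide term and, where named, with the difference within slide 2 (CYGB+ against that 1 NCE array). Some calls also ended under normexp, another background correction, and this is given beside them. One array, a repeat of CYGB+ replicate 1, stood apart, with a median correlation of 0.90 with the others against 0.954 to 0.978 for the rest.

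Noncoding genes act through their RNA or through what is cut from it. A snoRNA host gene is transcribed and spliced, and its introns release box C/D or box H/ACA snoRNAs, which guide 2'-O-methylation and pseudouridylation of ribosomal RNA; many host transcripts are then degraded on ribosomes. Antisense RNAs run opposite to a neighbouring gene, often from a shared promoter, and a transcribed pseudogene is a decayed copy of a parent gene, so that a probe for one can bind RNA of the other.

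Shown are the promoters of 4 snoRNA host genes that rose in CYGB+ and of ARHGAP5-AS1 and ARHGAP5, which start back to back. They were picked because the called probes within each set moved in the same direction (not every ARHGAP5 probe was called). That shared direction thus follows from the choice and is not a result. The called host genes SNHG9, which rose, and SNHG17, which fell, are not shown. The sequences are RefSeq's (GRCh38.p14), 250 bases before to 50 bases after the annotated start, written along each gene's own strand, with the bases from the start on in capitals.
SNHG1 (chr11:62855836-62856135, minus strand): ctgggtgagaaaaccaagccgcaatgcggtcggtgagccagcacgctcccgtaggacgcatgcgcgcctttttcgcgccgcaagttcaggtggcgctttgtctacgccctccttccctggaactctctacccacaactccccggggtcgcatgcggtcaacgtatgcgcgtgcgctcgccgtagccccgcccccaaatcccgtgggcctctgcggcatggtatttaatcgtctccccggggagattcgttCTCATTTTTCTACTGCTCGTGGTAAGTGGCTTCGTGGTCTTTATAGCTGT
SNHG8 (chr4:118278512-118278811, plus strand): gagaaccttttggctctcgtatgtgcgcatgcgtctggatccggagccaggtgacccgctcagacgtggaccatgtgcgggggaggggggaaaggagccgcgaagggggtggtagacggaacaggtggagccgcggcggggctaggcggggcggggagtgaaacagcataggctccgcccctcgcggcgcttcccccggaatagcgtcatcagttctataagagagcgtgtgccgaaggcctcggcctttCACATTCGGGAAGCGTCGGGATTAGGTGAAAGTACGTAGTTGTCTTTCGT
DANCR (chr4:52712144-52712443, plus strand): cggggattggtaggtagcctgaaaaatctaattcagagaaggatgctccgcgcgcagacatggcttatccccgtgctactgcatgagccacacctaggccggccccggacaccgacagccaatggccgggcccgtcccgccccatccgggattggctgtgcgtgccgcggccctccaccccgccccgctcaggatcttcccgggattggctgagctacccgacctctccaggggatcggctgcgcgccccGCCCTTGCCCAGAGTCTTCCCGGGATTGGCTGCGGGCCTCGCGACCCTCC
EPB41L4A-AS1 (chr5:112160276-112160575, plus strand): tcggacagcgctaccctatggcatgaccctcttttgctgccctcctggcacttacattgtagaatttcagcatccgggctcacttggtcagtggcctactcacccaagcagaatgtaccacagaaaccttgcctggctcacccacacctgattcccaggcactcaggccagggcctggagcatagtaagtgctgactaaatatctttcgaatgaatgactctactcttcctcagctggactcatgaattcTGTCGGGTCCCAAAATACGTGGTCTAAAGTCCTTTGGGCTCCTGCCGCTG
ARHGAP5-AS1 (chr14:32076650-32076949, minus strand): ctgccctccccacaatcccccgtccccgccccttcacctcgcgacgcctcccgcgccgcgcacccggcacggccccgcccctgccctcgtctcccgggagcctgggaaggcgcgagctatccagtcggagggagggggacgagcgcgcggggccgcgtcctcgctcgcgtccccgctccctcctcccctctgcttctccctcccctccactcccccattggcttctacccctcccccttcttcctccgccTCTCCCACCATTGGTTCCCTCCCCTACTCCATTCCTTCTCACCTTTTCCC
ARHGAP5 (chr14:32077054-32077353, plus strand): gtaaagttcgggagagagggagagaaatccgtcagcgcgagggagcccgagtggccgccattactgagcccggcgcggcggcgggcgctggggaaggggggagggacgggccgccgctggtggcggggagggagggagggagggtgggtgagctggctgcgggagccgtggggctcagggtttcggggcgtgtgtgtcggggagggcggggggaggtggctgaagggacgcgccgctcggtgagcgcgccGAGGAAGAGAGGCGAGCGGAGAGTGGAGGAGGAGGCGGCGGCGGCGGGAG
In all, 3 motifs were searched on both strands: the E-box CACGTG, the cyclic AMP response element TGACGTCA and the antioxidant response element TGACNNNGC. None of the 6 windows held any of these letters, which are found in 7.26%, 1.85% and 13.4% of all 35116 promoter windows of this length. The windows differed in base composition: EPB41L4A-AS1 was 52.3% G or C with 7 CG dinucleotides, DANCR 67.7% with 27 and SNHG1 60% with 30, against a median of 58.7% and 14 CG over all windows.

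Over all classes, 83 of the 652 kept probes were called, 46 higher and 37 lower in CYGB+, or 12.7%, near the 11.5% of all tested probes that were called (6.21% higher, 5.29% lower). With a filter in both groups 70 of 549 were called, against 11.1% of all probes. Same-numbered replicates paired, and with the replicate number as a block 135 of the 652 were called, against 17.5% of all probes. With the slide term 21 were called, against 3.45% of all probes, and 20 of these were among the 83. Of the 83, 82 kept their direction with the slide term and within slide 2; the exception was SCARNA17. A change between slides within NCE replicate 1 (its slide 2 array minus its slide 1 arrays) correlated with the differences. The correlation was r = 0.31 over the kept noncoding probes and 0.27 over all tested probes, a description over probes that share these arrays. The part of slide in the calls was not tested beyond these fits. Leaving out NCE replicate 2 left 21 calls, or 3.22%, against 3.2% of all tested probes.

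By class, counts stand beside the 11.5% of all tested probes that were called, or 11.1% with the filter in both groups. The shares were 31.6% for snoRNA host genes, 20.2% for antisense and overlapping RNAs, 7.47% for pseudogenes and 12.2% for long noncoding RNAs. Small RNAs had 11.5%, microRNA genes and hosts 23.1%, noncoding variants 30% and unmatched accessions 12.4%, none tested against the rest. SnoRNA host genes had 6 of 19 kept probes called (5 higher, 1 lower, median difference 0.38, against 0.01 over all tested probes). Antisense and overlapping RNAs had 22 of 109 (12 higher, 10 lower; median 0.11). Of these 109, 20 had passed the filter through CYGB+ alone and 6 through NCE alone. Among the 83 antisense probes that passed in both groups 12 were called, 5 higher and 7 lower. With the test run on such probes alone 13 of the 83 were called, against 11.1% of all probes. The share called and the balance of directions thus depended on the filter, and these few probes give no direction for the class. Pseudogenes had 18 of 241 (6 higher, 12 lower; median -0.01), long noncoding RNAs 16 of 131 (10 higher, 6 lower; median -0.04), and small RNAs 3 of 26 (1 higher, 2 lower; median 0.10). MicroRNA genes and hosts had 3 of 13 (1 higher, 2 lower; median 0.18) and noncoding variants of protein-coding genes 3 of 10 (2 higher, 1 lower; median -0.26). None of 6 ribosomal RNA probes was called by limma (1 had an unadjusted p under 0.05), and 12 of 97 probes whose accession matched no gene in the RefSeq table were called (9 higher, 3 lower). Counts with the replicate block were larger for pseudogenes (38), long noncoding RNAs (28) and small RNAs (7).

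Of the 6 called snoRNA host probes 5 were higher in CYGB+; whether this class differs from the others was not tested. All 19 kept probes, of 20 on the array, were well above background in both groups, and they read 18 genes. SNHG9, host of a box H/ACA snoRNA, gave 11.28, 11.19 and 11.35 in NCE and 12.58, 12.78 and 12.89 in CYGB+. The groups did not overlap, and the difference was 1.48 (SE 0.15, adjusted p = 0.00244), 1.5 with the slide term (adjusted p = 0.00164) and 1.49 within slide 2. EPB41L4A-AS1, which hosts SNORA13 in an intron and is transcribed opposite the band 4.1 gene EPB41L4A, gave 11.05, 11.03 and 11.23 in NCE against 12.51, 12.31 and 12.50 in CYGB+. Its difference was 1.34 (SE 0.15, adjusted p = 0.0034), 1.07 with the slide term (adjusted p = 0.00487). DANCR, the host of SNORA26 that is named for its effect on differentiation, gave 11.27, 11.36 and 11.28 in NCE and 12.24, 12.51 and 12.25 in CYGB+, again with no overlap. It rose by 1.03 (SE 0.15, adjusted p = 0.0074), and by 1.34 with the slide term (adjusted p = 0.00239).

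The other called host genes moved less. SNHG8, host of SNORA24, rose from 14.03, 14.26 and 14.25 to 15.13, 14.72 and 15.05 (difference 0.79, SE 0.17, adjusted p = 0.0277, and 0.68 with adjusted p = 0.156 under the slide term). SNHG1, a host of several box C/D snoRNAs, rose from 13.04, 13.02 and 13.14 to 13.61, 13.76 and 13.95 (difference 0.71, SE 0.16, adjusted p = 0.0285, and 0.72 with adjusted p = 0.224 under the slide term). SNHG17 was the only called host gene that fell: its signals were 11.65, 11.75 and 11.86 in NCE and 11.16, 11.12 and 11.27 in CYGB+, a difference of -0.57 (SE 0.15, adjusted p = 0.0447), -0.79 with the slide term (adjusted p = 0.0465). The other 13 probes did not pass the unblocked test. SNHG3 had a difference of 1.00 (SE 0.28, adjusted p = 0.0601, and 0.0117 with the replicate block), with NCE at 11.98, 11.40 and 11.89 and CYGB+ at 13.29, 12.26 and 12.73. With the slide term SNHG3 had 0.76 (adjusted p = 0.567). GAS5, the host named for RNA that builds up in growth arrest, had 0.31 (SE 0.16, adjusted p = 0.251), ZFAS1 0.10 (adjusted p = 0.832), SNHG5 0.12 (adjusted p = 0.627), SNHG6 -0.01 (adjusted p = 0.969), SNHG15 0.10 (adjusted p = 0.692) and SNHG12 0.52 (adjusted p = 0.101). The 2 probes of SNHG7 gave 0.25 and 0.42, neither called.

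Small RNAs themselves are read by 26 kept probes. The labelling protocol primes from poly(A) tails, which mature snoRNAs lack, so whether these probes read the mature RNA or a precursor was not tested. SNORD17, a box C/D snoRNA from an intron of the sorting nexin gene SNX5, fell from 9.74, 9.75 and 9.78 in NCE to 8.03, 8.07 and 8.49 in CYGB+. The difference was -1.56 (SE 0.17, adjusted p = 0.00292), -1.49 with the slide term (adjusted p = 0.00749), with a wide gap between the groups. Its host SNX5 fell as well, by 0.92 (SE 0.16, adjusted p = 0.0141, and -1.02 with adjusted p = 0.0305 under the slide term). SNORA59B, a box H/ACA snoRNA, fell by 0.91 (SE 0.16, adjusted p = 0.0122) and was well above background on 4 of 6 CYGB+ arrays. SNORA59B had -1.15 with the slide term (adjusted p = 0.102) and -0.34 with normexp (adjusted p = 0.056), so neither fit kept the call. SCARNA17, a guide RNA of Cajal bodies, gave 7.34, 6.80 and 7.22 in NCE and 8.05, 7.94 and 7.64 in CYGB+, a difference of 0.76 (SE 0.20, adjusted p = 0.0474). It was -0.16 with the slide term and within slide 2, so its direction rests on NCE arrays of the first slide, and SCARNA17 had 0.35 with normexp (adjusted p = 0.112).

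TERC, the template RNA of telomerase, had -1.07 (SE 0.33, adjusted p = 0.0729, and 0.0123 with the replicate block) but 0.03 with the slide term. RN7SK, which holds the elongation factor P-TEFb inactive, had 0.69 (adjusted p = 0.169), RMRP, the RNA of RNase MRP, 0.18 (adjusted p = 0.744), and RPPH1, the RNA of RNase P, -0.28 (adjusted p = 0.607). Host and snoRNA were set side by side for 5 further small RNAs, chosen after their values were seen. SNORA73A (0.71) and both probes of SNORA73B (0.80 and 0.84) lay near their host SNHG3 (1.00). None was called in the unblocked fit, and with the replicate block the adjusted p-values of the snoRNA probes were 0.0248, 0.022 and 0.0139. With the slide term SNHG3 had 0.76 (adjusted p = 0.567). SNORA23 had -0.75 and its host IPO7, an importin, -0.58 and -0.81 on 2 probes, none called. The second IPO7 probe had an adjusted p of 0.0179 with the replicate block. With the slide term the IPO7 probes had -0.40 and -0.48 (adjusted p = 0.702 and 0.704). SNORD15A had -0.47 (adjusted p = 0.442) and its host RPS3, a ribosomal protein gene, -0.05 (adjusted p = 0.857). SNORA62 had -0.14, and its host RPSA, another such gene, -0.11 to 0.40 on 4 probes, none called.

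MicroRNA host genes are read by the array as long transcripts, not as mature microRNAs. For the hosts that were called, the mature sequences from RefSeq (GRCh38.p14) are given to show which seeds they carry, with the seed (bases 2 to 8) in capitals.
hsa-miR-675-5p (in H19): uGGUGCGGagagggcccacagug
hsa-miR-503-5p (beside MIR503HG): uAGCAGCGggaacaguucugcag
hsa-miR-424-5p (in the same cluster): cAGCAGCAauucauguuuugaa
hsa-miR-4435 (at MIR4435-2HG and, with the same letters, at CYTOR): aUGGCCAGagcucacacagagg
The seeds of miR-503-5p and miR-424-5p share 6 of 7 bases. H19, an imprinted RNA of fetal tissue and the precursor of miR-675, gave 9.78, 8.28 and 7.77 in NCE and 7.37, 6.18 and 5.77 in CYGB+. The groups did not overlap, but both spread widely (SD 1.04 and 0.83). The difference was -2.17 (SE 0.56, adjusted p = 0.0469), -3.0 with the slide term (adjusted p = 0.0397) and -3.43 within slide 2, and with the replicate block the adjusted p was 0.000866. With normexp H19 had -1.24 (adjusted p = 0.0734), so the call ended.

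MIR503HG, transcribed beside the miR-503 and miR-424 cluster, gave 9.82, 9.80 and 10.62 in NCE and 11.01, 10.90 and 11.31 in CYGB+. It rose by 0.99 (SE 0.25, adjusted p = 0.0435), and was 1.01 with the slide term (adjusted p = 0.134). MIR4435-2HG and CYTOR are near-identical copies on chromosome 2, so their probes are uncertain as to which copy they bind, yet they moved in opposite directions. MIR4435-2HG fell from 12.11, 12.18 and 12.03 in NCE to 11.39, 11.35 and 11.38 in CYGB+ (difference -0.73, SE 0.14, adjusted p = 0.0182, and -0.92 with adjusted p = 0.00741 under the slide term). CYTOR, filed among the long noncoding RNAs, rose from 12.54, 12.54 and 12.71 to 13.06, 13.36 and 13.36 (difference 0.66, SE 0.16, adjusted p = 0.0379, and 0.80 with adjusted p = 0.0631 under the slide term). Of the hosts not called, MIR31HG had 0.54 (adjusted p = 0.0756), MIR22HG 0.18 (adjusted p = 0.678) and MIR17HG, host of the miR-17 to miR-92 cluster, -0.63 (adjusted p = 0.496), with 0.09 for the last under the slide term.

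Differences of antisense RNAs ran from -2.19 (FUT8-AS1) to 1.92 (RGMB-AS1), and both of these probes passed the filter through the group where they were brighter. RGMB-AS1, opposite the gene of the bone morphogenetic protein co-receptor RGMB, gave 3.89, 4.07 and 3.80 in NCE and 6.13, 5.80 and 5.60 in CYGB+. It was well above background on none of the 9 NCE arrays and on all 6 CYGB+ arrays, so its NCE level was not measured. The fit gave adjusted p = 0.0019, for a probe kept only for its CYGB+ signal, and 1.51 with adjusted p = 0.243 under the slide term. On the processed signals a lower bound was 2.30-fold, but normexp gave a difference of only 0.36 (adjusted p = 0.0519), so the bound holds for that processing alone. This bound sets the CYGB+ mean against the NCE mean of, per array, the higher of the probe's own signal and the lowest signal among probes well above background. RGMB itself had 0.64 (SE 0.26, adjusted p = 0.148, and 0.0384 with the replicate block). GNAS-AS1, an imprinted antisense RNA of the gene of the stimulatory G protein alpha subunit, gave 6.78, 5.36 and 7.07 in NCE and 8.11, 7.75 and 8.17 in CYGB+, above background on 8 of 9 NCE arrays. The difference was 1.60 (SE 0.41, adjusted p = 0.0447, and 1.07 with adjusted p = 0.849 under the slide term), and GNAS had -0.24 (adjusted p = 0.355).

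PSG8-AS1 and its sense gene PSG8, one of the pregnancy-specific glycoproteins, both rose. The antisense probe, above background on 2 of 9 NCE arrays, gave 4.14, 4.44 and 4.66 in NCE and 6.09, 5.40 and 6.32 in CYGB+ (difference 1.52, SE 0.26, adjusted p = 0.0126). PSG8-AS1 lost this call with the slide term (1.45, adjusted p = 0.341) and with normexp (0.31, adjusted p = 0.134). PSG8 rose from 5.58, 5.48 and 5.25 to 6.76, 6.46 and 6.44 (difference 1.12, SE 0.17, adjusted p = 0.00831, and 0.91 with adjusted p = 0.0421 under the slide term). The glycoprotein genes are close copies of each other, so which of them this probe bound is uncertain. Both probes of ZNF436-AS1 were called higher (1.02 and 1.44), but with the slide term they had 0.68 and 0.35 (adjusted p = 0.488 and 0.89). The second, above background on 2 of 9 NCE arrays, had 0.32 with normexp (adjusted p = 0.0642), and ZNF436, a zinc finger gene, had -0.06 (adjusted p = 0.884).

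Among those that fell, DHRS4-AS1, opposite the dehydrogenase gene DHRS4, gave 6.20, 6.20 and 5.94 in NCE and 4.30, 4.19 and 4.16 in CYGB+, where it was above background on 3 of 6 arrays. The difference was -1.90 (SE 0.15, adjusted p = 0.00107), -2.02 with the slide term (adjusted p = 0.0028). A second DHRS4-AS1 probe had -0.70 (SE 0.51, adjusted p = 0.392), with CYGB+ replicate 1 at 9.20 above all 3 NCE values and the others at 7.30 and 7.09 below them. DHRS4 fell on all 3 of its probes, from -0.99 to -1.22, and its brightest probe gave 10.79, 10.54 and 10.31 in NCE and 9.72, 9.69 and 9.27 in CYGB+ (adjusted p = 0.0207, and -1.16 with adjusted p = 0.0244 under the slide term). FUT8-AS1, opposite the core fucosyltransferase gene FUT8, fell from 8.20, 8.02 and 8.53 to 5.50, 5.90 and 6.77 (difference -2.19, SE 0.32, adjusted p = 0.00726, and -2.26 with adjusted p = 0.017 under the slide term), and was above background on 5 of 6 CYGB+ arrays; no coding probe was matched to FUT8. MORC2-AS1 fell by 1.08 (SE 0.19, adjusted p = 0.0144, and -0.68 with adjusted p = 0.215 under the slide term), while MORC2, a chromatin remodelling ATPase gene, had -0.02 (adjusted p = 0.97).

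Of the 109 probes of antisense and overlapping RNAs, 104 could be set beside the gene in their symbol, here called the sense gene. The other 5 could not, FUT8-AS1 among them. The sense gene was read by its probe of highest mean signal. With the snoRNA host EPB41L4A-AS1 this made 105 pairs, of which 87 had a sense probe that was tested. Pairs were made from symbol endings (-AS, -IT, -OT or -DT). In 67 of the 105 the RNA started on the same strand (SLC9A3-OT1 and ANP32A-IT1 among them) or no single start was found. Antisense below thus names the RNA of each pair, whatever its strand. In these 87 pairs the antisense probe was called in 17 and the sense probe in 9 (7 different sense probes), while 11.5% of all tested probes were called. In 6 pairs, of 5 gene pairs, both were called, each time in the same direction. Among them DHRS4-AS1 and PSG8-AS1 passed the filter only through the group where they were brighter, so this count is a description. In 11 pairs the antisense RNA was called and the sense gene was not. Over the 87 pairs the differences had the same sign in 55 (Pearson correlation 0.44, Spearman correlation 0.38), a description of pairs that share arrays and, often, a locus. The pairs called on both sides were DHRS4, PSG8, ARHGAP5 (with 2 antisense probes), PRKCQ and RPL26L1, the last 3 of them chosen after their values were seen.

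ARHGAP5-AS1 and ARHGAP5, the gene of a GTPase-activating protein, start 605 bases apart on opposite strands, with the promoter windows printed above. The antisense probes fell from 8.40, 8.28 and 8.85 to 7.60, 7.36 and 7.48 (difference -1.03, adjusted p = 0.016, and -1.10 with adjusted p = 0.0709 under the slide term) and from 7.44, 7.49 and 7.64 to 6.79, 6.44 and 6.68 (difference -0.88, adjusted p = 0.0149, and -1.01 with adjusted p = 0.0319 under the slide term). ARHGAP5 fell from 10.38, 10.85 and 10.64 to 9.82, 9.85 and 9.68 on its brightest probe (difference -0.84, SE 0.17, adjusted p = 0.0224, and -0.66 with adjusted p = 0.137 under the slide term). Of its 4 probes 2 were called, and they ranged from -0.91 to 0.24, so the probes of this gene disagreed. PRKCQ-AS1 fell by 0.91 (SE 0.16, adjusted p = 0.0124, and -1.0 with adjusted p = 0.00581 under the slide term), and PRKCQ, the gene of protein kinase C theta, fell by 1.08 (SE 0.21, adjusted p = 0.0188, and -1.27 with adjusted p = 0.0401 under the slide term). RPL26L1-AS1 rose by 0.63 (adjusted p = 0.047) and RPL26L1, a ribosomal protein paralogue, by 0.71 (adjusted p = 0.0273), but with the slide term neither RPL26L1-AS1 (0.73, adjusted p = 0.146) nor RPL26L1 (0.72, adjusted p = 0.121) was called. Among all pairs, 24 had annotated starts on opposite strands within 1000 bases; 21 of these had a tested sense probe, with the same sign in 14, and of these 21 the antisense RNA was called in 2, both of them ARHGAP5-AS1.

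Pseudogenes were the largest class. AADACP1, a pseudogene of arylacetamide deacetylase, gave 4.78, 5.44 and 5.74 in NCE, where it was above background on 6 of 9 arrays, and 8.51, 7.97 and 9.01 in CYGB+. The groups were far apart: the difference was 3.17 (SE 0.32, adjusted p = 0.00222), 2.88 with the slide term (adjusted p = 0.0188) and 3.15 within slide 2. AADACP1 passed the filter through CYGB+ alone, so its NCE level was only partly measured, and with normexp it had 1.48 (adjusted p = 0.00524). Its parent AADAC, a lipid-hydrolysing esterase of the endoplasmic reticulum, gave 4.85, 5.74 and 6.54 in NCE and 8.71, 8.50 and 9.71 in CYGB+ (difference 3.27, SE 0.46, adjusted p = 0.00667, and 4.0 with adjusted p = 0.00228 under the slide term). Replicates ranked alike on both probes within each group, and whether they bind the same transcript was not tested.

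Of 129 pseudogene pairs, 123 had a tested parent probe. The pseudogene was called in 12 and the parent in 11 (10 different parent probes), while 11.5% of all tested probes were called. In 4 pairs both were called, each in the same direction. Besides AADACP1 these were TOP1P2, AURKAP1 and HTR7P1, all lower. TOP1P2 fell from 9.70, 10.31 and 9.88 to 8.44, 8.81 and 8.92 (difference -1.24, SE 0.21, adjusted p = 0.0126, and -0.79 with adjusted p = 0.283 under the slide term), and TOP1, the gene of DNA topoisomerase I, fell on both its probes, by 0.67 and 0.87 (for the first, -0.78 with adjusted p = 0.0479 under the slide term). AURKAP1 fell by 1.12 (SE 0.21, adjusted p = 0.0165, and -1.09 with adjusted p = 0.419 under the slide term), and AURKA, the mitotic kinase Aurora A, fell by 0.79 (SE 0.19, adjusted p = 0.0366, and -0.97 with adjusted p = 0.234 under the slide term). HTR7P1, chosen after its values were seen, fell by 0.75 (adjusted p = 0.0447) and HTR7, a serotonin receptor gene, by 0.69 (adjusted p = 0.0321), but with the slide term neither HTR7P1 (-0.90, adjusted p = 0.229) nor HTR7 (-0.65, adjusted p = 0.139) was called. In 8 pairs the pseudogene was called and the parent was not. Of these, SSR4P1 fell from 5.87, 5.34 and 5.71 to 4.78, 4.30 and 4.31 (difference -1.18, SE 0.21, adjusted p = 0.0141, and -1.87 with adjusted p = 0.0268 under the slide term) and was above background on 4 of 6 CYGB+ arrays. SSR4P1 passed the filter through NCE alone and had -0.22 with normexp (adjusted p = 0.184), which ended the call. Its parent SSR4, a subunit of the translocon-associated protein complex, had 0.44 (SE 0.21, adjusted p = 0.21).

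The pseudogene and parent differences had the same sign in 69 of 123 pairs, with a Pearson correlation of 0.54 and a Spearman correlation of 0.35 over all, and a Pearson correlation of 0.31 over the 122 pairs without AADACP1. KRT16P2, a keratin pseudogene of the listed set, had the opposite sign to its parent but was not called in the unblocked fit. It had 0.84 (SE 0.28, adjusted p = 0.0979, 0.0385 with the replicate block, and 0.61 with adjusted p = 0.697 under the slide term). Its signals were 12.26, 12.28 and 11.66 in NCE and 12.53, 13.46 and 12.72 in CYGB+. KRT16, a keratin of stressed and wounded epithelium, fell by 0.74 (SE 0.15, adjusted p = 0.0224, and -1.23 with adjusted p = 0.0152 under the slide term). The KRT16 probe was dimmer, with a mean of 7.68 in NCE, and what the KRT16P2 probe bound was not tested. MT1L, a metallothionein copy, had 0.08 (adjusted p = 0.882) and turned to -1.0 with the slide term. TNIP2P1 rose by 0.88 (SE 0.15, adjusted p = 0.0119, and 0.73 with adjusted p = 0.0682 under the slide term), and TNIP2, an inhibitor of NF-kappaB signalling, had 0.48 (adjusted p = 0.257). LOC388242 rose by 0.98 (SE 0.16, adjusted p = 0.0109, and 0.71 with adjusted p = 0.0562 under the slide term). The remaining listed pseudogenes were not called: NACA4P had -0.55, HLA-J -0.45 and GBA1LP 0.34.

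Long noncoding RNAs outside the groups above had 10 probes higher and 6 lower. LINC00205 fell from 8.58, 8.74 and 8.56 in NCE to 6.33, 7.04 and 7.28 in CYGB+ (difference -1.74, SE 0.25, adjusted p = 0.00673, and -1.49 with adjusted p = 0.102 under the slide term). MANCR, named for mitotic association, fell from 7.45, 7.21 and 7.66 to 6.06, 5.86 and 6.13 (difference -1.42, SE 0.17, adjusted p = 0.00426, and -1.70 with adjusted p = 0.00309 under the slide term). HCG11 fell from 11.61, 11.86 and 11.86 to 10.24, 10.26 and 10.97 (difference -1.29, SE 0.23, adjusted p = 0.0136, and -1.36 with adjusted p = 0.0308 under the slide term). None of these overlapped between groups. NORAD, an RNA induced by DNA damage that holds PUMILIO proteins and was chosen after its values were seen, had -0.95 (adjusted p = 0.0383, and -0.82 with adjusted p = 0.195 under the slide term) and, on a second probe, -0.98, which was called only with the replicate block (adjusted p = 0.0307).

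LINC-PINT, an RNA that p53 induces, rose from 7.28, 7.24 and 7.53 in NCE to 8.72, 8.28 and 8.46 in CYGB+ (difference 1.13, SE 0.18, adjusted p = 0.00877, and 0.59 with adjusted p = 0.652 under the slide term). CRNDE, named for its raised level in colorectal neoplasia, rose from 8.56, 8.32 and 8.32 to 9.60, 9.21 and 9.38 (difference 1.00, SE 0.17, adjusted p = 0.0117, and 0.66 with adjusted p = 0.241 under the slide term), and LINC01963 rose by 0.94 (SE 0.21, adjusted p = 0.0314). LINC01963 was no longer called with the slide term (1.07, adjusted p = 0.248) or with normexp (0.52, adjusted p = 0.0502). Of the widely studied RNAs on the fixed list of 61 names, 43 had an NR_ probe and 34 a kept one, which came to 42 and 33 different RNAs since CYTOR is listed under 2 names; the listed name DLEU2 matched only DLEU1, as a synonym. UCA1, an RNA of urothelial and squamous cancers, had -0.16, with NCE at 13.80, 13.80 and 13.91 and CYGB+ at 13.71, 13.67 and 13.64, and did not pass the test. MALAT1, a nuclear speckle RNA, had -0.30, but 0.55 with the slide term, and MEG3, an imprinted RNA, had -0.79. Neither was called in the unblocked fit. MEG3 had an adjusted p of 0.0224 with the replicate block, but a difference of -0.03 with the slide term (adjusted p = 0.997). Both probes of PVT1, the RNA beside MYC, had smaller differences (0.44 and 0.49), not called.

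Noncoding variants of protein-coding genes had 10 kept probes. AFMID, the gene of arylformamidase in tryptophan breakdown, was read by a noncoding-variant probe that rose from 4.11, 4.47 and 4.72 in NCE, above background on 1 of 9 arrays, to 5.34, 5.99 and 6.18 in CYGB+ (difference 1.40, SE 0.26, adjusted p = 0.0165, and 1.61 with adjusted p = 0.0998 under the slide term), and AFMID had 0.27 with normexp (adjusted p = 0.139). The 2 coding probes of AFMID had 0.04 and -0.22, neither called, so the probes of this gene disagreed. MYH16, a sarcomeric myosin gene that humans carry in a truncated form and that the RefSeq table lists as protein coding, fell from 7.30, 7.18 and 7.82 to 6.0, 6.2 and 6.19 (difference -1.30, SE 0.20, adjusted p = 0.00853, and -1.36 with adjusted p = 0.0305 under the slide term). SPACA6, a sperm acrosome gene, rose by 0.90 (SE 0.19, adjusted p = 0.0231, and 0.65 with adjusted p = 0.194 under the slide term).

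Accessions that matched no gene are given by their number only. NR_034020 fell from 7.53, 6.73 and 7.83 in NCE to 5.34, 4.90 and 5.22 in CYGB+, above background on 4 of 6 arrays there (difference -2.21, SE 0.29, adjusted p = 0.00511, and -2.48 with adjusted p = 0.00487 under the slide term). NR_026927 fell by 1.33 (SE 0.16, adjusted p = 0.00442, -1.33 with adjusted p = 0.502 under the slide term, and -0.305 with adjusted p = 0.108 under normexp). NR_003251 fell by 0.74 (SE 0.17, adjusted p = 0.0304), with -0.77 under the slide term (adjusted p = 0.114) and -0.448 under normexp (adjusted p = 0.0595). NR_024449, NR_024245 and NR_024609 rose by 1.11, 0.99 and 0.98, and under the slide term had 0.68, 0.51 and 0.86 (adjusted p = 0.49, 0.816 and 0.255), none called. Under normexp NR_024609 had 0.351 (adjusted p = 0.0694), also not called.

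Genes read by more than 1 kept probe show how far single probes carry. Of 58 such genes, 7 had a called probe, 3 had every probe called, and none had probes called in both directions. The 3 were ARHGAP5-AS1 (lower), ZNF436-AS1 (higher) and LINC00467 (higher, 0.57 and 0.63), the last chosen after its values were seen. With the slide term the LINC00467 probes had 0.47 and 0.52 (adjusted p = 0.138 and 0.223).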

How the data were processed

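Total RNA of 15 samples was measured on Agilent SurePrint arrays. Per the file headers, Feature Extraction 10.7.3.1 made the deposited processed signal intensity per spot, background-subtracted and dye-normalised within each array with the red channel. The authors' deposited value table holds 15031 matched probes on a natural log scale, centred per probe with an unknown offset; column medians ran from -0.161 to 0.183, and the slope against the log2 scanner differences was 0.585 to 0.704 (0.693 is the natural log of 2).

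Spots flagged as outliers were left out, spots of a probe averaged, log2 values quantile-normalised and array repeats averaged per biological replicate; 12 kept noncoding probes lacked some array value for this reason. The number of arrays limits the precision. CYGB+ was compared with NCE by limma 3.58.1 (R 4.3.3) with Benjamini-Hochberg adjustment over 19605 probes. Nothing says whether the 3 extractions came from separate cultures, so p-values measure the spread between these samples. In simulated data for this comparison (19605 probes), 47 of 100 changes of 1 log2 unit and 83 of 100 changes of 2 were recovered, with 9 false calls. The simulated replicates were independent, with no slide difference and no pairing, and no other probes were changed. In the real data 2254 probes were called, so the simulation gives neither the recovery nor the false-call rate of these arrays. Same-numbered replicates deviated together (correlations 0.24, 0.262 and 0.329, from the biological replicate numbers in the labels), so the numbers were taken to pair the samples.

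Of the kept probes 555 (484 accessions) were named through the RefSeq gene table by accession; 97 were not matched. Classes followed symbols and RefSeq biotypes. The files' header build is hg19, while the table and printed sequences are GRCh38.p14, so no probe coordinates are given. Named were the 8 highest and 8 lowest called differences, the 3 highest and 3 lowest called per class, 61 listed RNAs and their partners; others are said to be chosen later. RNAs of X inactivation and of the Y chromosome (6 probes) were counted and not named. The members and lists were chosen with earlier results of these data known.

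Alternatives were a 75th percentile shift, normexp, other filters, outlier spots kept, the methods' t-test, a replicate block, arrays as units with and without a slide term, slide 2 alone, the value table, and each replicate left out; normexp on the median signal (the mean signal was not used here) and leaving out the array that stood apart were added after seeing the data.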

Additional observations from a re-analysis of the deposited data

How the results depend on the processing

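Directions held for all 83 called probes, wherever an alternative gave them a value, except under the slide term and slide 2 alone, where SCARNA17 turned (-0.164 and -0.157). Counts of calls moved more. Against 46 higher and 37 lower, the methods' t-test gave 18 and 12, the replicate block 69 and 66, arrays as units 80 and 72, the slide term 5 and 16, slide 2 alone 1 and 1, the deposited values 29 and 25 of 461 probes (42 of the 53 main calls it holds), no filter 26 and 32, and leaving out the array that stood apart (chosen after seeing the data) 85 and 62. Leaving out 1 replicate gave 8 to 39 higher and 11 to 42 lower. Calls were fewest without NCE replicate 2 (21), then NCE replicate 3 (32), NCE replicate 1 (41) and CYGB+ replicate 3 (49). These were 3.22%, 4.91%, 6.29% and 7.515% of the noncoding probes, against 3.2%, 3.97%, 5.43% and 7.17% of all tested probes. The t-test called 4.6% against 4.01% of all, arrays as units 23.31% against 23.82% and no filter 3.02% against 2.92%. Without the array that stood apart it was 22.55% against 20.54%, so these counts moved with those over all probes. For the methods' t-test and no filter the cause was not tested; slide 2 alone holds 1 NCE array.

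By class, in calls of antisense RNAs (22), pseudogenes (18), long noncoding RNAs (16), unmatched accessions (12), snoRNA hosts (6) and small RNAs, microRNA hosts and variants of coding genes (3 each): normexp gave 14 antisense, and the filter in both groups 13. No filter gave 10 pseudogenes, 3 snoRNA hosts and 1 microRNA host, and keeping outlier spots 1 microRNA host. The t-test gave 6 antisense, 9 pseudogenes, 4 long noncoding, 4 unmatched, 1 microRNA host and 0 variants. The replicate block gave 38 pseudogenes, 28 long noncoding and 7 small RNAs, and among the named probes changed no call other than those given in the text. Arrays as units gave 44 pseudogenes, 26 long noncoding, 23 unmatched, 8 small RNAs and 5 variants. The slide term gave 6 antisense, 3 pseudogenes, 3 long noncoding, 1 unmatched, 1 small RNA and 1 variant; slide 2 alone 1 pseudogene, 1 unmatched and 0 in the other classes. The value table gave 12 antisense and 6 unmatched. Without the array that stood apart there were 37 antisense, 41 pseudogenes, 27 long noncoding, 21 unmatched, 5 small RNAs and 5 variants. Leaving out 1 replicate gave 7 to 23 antisense, 2 to 18 pseudogenes, 3 to 13 long noncoding, 3 to 13 unmatched, 3 to 6 snoRNA hosts, 1 to 4 small RNAs, 0 to 2 microRNA hosts and 1 to 4 variants.

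Named probes that were not called turned sign as follows. With the slide term MALAT1 had 0.553, MIR17HG 0.0876, HLA-J 0.0438, MT1L -1.0, TERC 0.0265, RMRP -0.0391 and ZFAS1 -0.0209; within slide 2 MALAT1 had 0.654, MIR17HG 0.513, HLA-J 0.16, MT1L -1.11, TERC 0.0049, RMRP -0.298 and RN7SK -0.0406. SNHG6 had 0.127 with the percentile shift, 0.0267 with normexp and 0.109 in the value table, and ZFAS1 -0.0949 without the array that stood apart. Leaving out replicates, SNHG6 ranged from -0.112 to 0.0516, MT1L from -0.131 to 0.367, RMRP from -0.0687 to 0.491, MIR22HG from -0.072 to 0.389 and ZFAS1 from -0.204 to 0.3. Probes near background have signals that only bound a change. Of 41 named calls, 12 ended with normexp, their values given in the text beside each, and 16 with no filter. The slide term ended 25 besides SCARNA17, which turned, and the methods' t-test ended 26. Leaving out NCE replicate 2 ended 24, and leaving out any other replicate 5 to 18. Normexp on the mean signal was not run.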
